A study of Mus musculus with 12 samples.

Results

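The 34 genes described here code for the core machinery of macroautophagy and for the receptors that bring cargo to it, and they are 34 of the 53465 rows of the deposited gene table, picked by symbol. RNA was sequenced in 12 libraries of peritoneal macrophages, the resident phagocytes of the abdominal cavity, taken from C57BL/6 mice at postnatal week 10. The libraries form 4 groups of 3: Lyz2Cre control, Lyz2Cre with lipopolysaccharide (LPS), Lyz2Cre-BHLHE40-Fl control and Lyz2Cre-BHLHE40-Fl with LPS. All 12 carry Lyz2Cre, a Cre recombinase expressed from the lysozyme 2 locus in myeloid cells, so the genotype labels differ in the BHLHE40-Fl part alone. BHLHE40 is a transcription factor of the basic helix-loop-helix family, and the series asks how it shapes the inflammatory response of these cells. LPS is a bacterial outer membrane component sensed through TLR4, and the labels state neither its dose nor its duration.

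Macroautophagy encloses cytoplasm in a double membrane and delivers it to the lysosome. The ULK1 kinase complex starts the process, and the class III PI3 kinase complex marks the membrane with a phosphoinositide that WIPI proteins read, while ATG9 and ATG2 supply lipid. A pair of ubiquitin-like conjugation systems then attaches ATG8 proteins (LC3 and GABARAP) to the membrane, ATG4 proteases trim and recycle them, and cargo receptors bind both ATG8 proteins and the cargo. In macrophages the pathway limits intracellular bacteria and the inflammasome. mRNA levels do not measure autophagic flux.

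Values below are the deposited ones, each gene's reads over a factor that is the same for all genes of a library, and are called scaled reads. The labels do not say whether the 3 replicates of a group came from separate mice or cultures, so p-values reflect no more than the spread among these libraries, which may be technical. A gene was called when its Benjamini-Hochberg adjusted p from limma, over 20419 tested genes, was under 0.05. All 34 members passed the filter on low values. Differences carry the standard error (SE) of the fit and are on the log2(value + 1) scale.

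Libraries held 20489417 to 29354869 reads. Bhlhe40 itself does not mark the libraries labelled Lyz2Cre-BHLHE40-Fl: it stood at 4976 ± 295 scaled reads in Lyz2Cre controls and 7893 ± 239 in Lyz2Cre-BHLHE40-Fl controls, and at 2467 ± 226 and 2232 ± 244 with LPS (mean ± SD, n = 3 each). A gene total cannot show the loss of part of a gene, and which exons were targeted is not given in the sources used here. Macrophage markers (8 genes) summed to 117673 to 129681 in Lyz2Cre controls and 60886 to 69288 in Lyz2Cre-BHLHE40-Fl controls, and to 160409 to 167805 against 87321 to 91097 with LPS, with 7 of 8 called lower in the libraries labelled Lyz2Cre-BHLHE40-Fl in each treatment. Mesothelial and stromal markers (12 genes) summed to 1882 to 2011 against 9370 to 12265 in controls and to 3097 to 4546 against 10198 to 13746 with LPS, all 12 called higher in both treatments. Upk3b, Msln and Krt18 were at 0 in all Lyz2Cre controls, and Upk3b, Krt8 and Upk1b in all Lyz2Cre libraries with LPS. T cell markers summed to 51.3 to 70.4 in Lyz2Cre libraries and 3.1 to 12.7 in the others, and neutrophil markers to 372 to 1031.2 against 42.8 to 222.4. Nearly all of the neutrophil sum was S100a8, at 369.6 to 1031.2 against 42.8 to 221.2. Ly6g was at 0 in every library, and S100a9, Mpo, Elane and Retnlg had at most 2.5 in any library. B cell markers summed to 19.7 to 88.9 over all libraries. Every genotype comparison below moves with these markers, and their part in it was not tested. In bulk RNA, fewer cells of a type and less RNA per cell cannot be told apart.

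Because the genotype label concerns a factor known to bind the E-box CACGTG, the RefSeq promoters of the members (250 bases before to 50 after the start, GRCm38.p6) were searched for it on both strands. The table held 32 promoters of 28 members, and 4 of the 32 (12.5%) had a match, against 7.15% of all 32851 promoters. The 4 are shown 5′ to 3′ on the gene's strand with the E-box in capitals. They belong to Atg3 (chr16:45158579-45158878, plus strand), Atg5 (chr10:44268089-44268388, plus strand), Atg7 (chr6:114670846-114671145, plus strand) and Atg14 (chr14:47568385-47568684, minus strand).
Atg3: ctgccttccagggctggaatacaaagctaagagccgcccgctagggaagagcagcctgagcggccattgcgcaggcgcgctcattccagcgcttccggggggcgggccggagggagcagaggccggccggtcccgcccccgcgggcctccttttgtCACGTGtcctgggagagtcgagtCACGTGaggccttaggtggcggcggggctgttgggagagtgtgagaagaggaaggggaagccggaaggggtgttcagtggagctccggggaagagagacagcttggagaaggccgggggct
Atg5: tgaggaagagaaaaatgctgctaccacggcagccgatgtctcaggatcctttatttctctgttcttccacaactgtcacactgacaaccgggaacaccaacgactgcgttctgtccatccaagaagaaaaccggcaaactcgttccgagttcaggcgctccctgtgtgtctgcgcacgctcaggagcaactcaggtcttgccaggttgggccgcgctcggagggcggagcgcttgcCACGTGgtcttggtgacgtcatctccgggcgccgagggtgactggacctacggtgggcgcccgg
Atg7: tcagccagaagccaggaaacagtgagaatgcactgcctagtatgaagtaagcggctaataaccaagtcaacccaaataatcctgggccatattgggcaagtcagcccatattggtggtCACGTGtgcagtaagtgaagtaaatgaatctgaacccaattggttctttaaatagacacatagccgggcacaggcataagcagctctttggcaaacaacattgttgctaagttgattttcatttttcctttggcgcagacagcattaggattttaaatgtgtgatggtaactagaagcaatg
Atg14: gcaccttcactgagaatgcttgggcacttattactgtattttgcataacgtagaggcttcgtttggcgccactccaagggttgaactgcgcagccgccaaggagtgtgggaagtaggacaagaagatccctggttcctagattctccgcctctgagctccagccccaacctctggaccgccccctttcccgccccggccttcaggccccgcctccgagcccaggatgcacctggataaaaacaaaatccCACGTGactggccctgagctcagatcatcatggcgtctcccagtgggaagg
The window of Atg3 holds 2 copies and the other 3 windows 1 each. Those of Atg7 and Atg14 belong to start sites inside the annotated gene. On the deposited scaling the 4 genes did not share a direction. With LPS, Atg3 was called higher in both genotype labels and Atg5 and Atg7 lower in both. Atg14 had log2 changes of -0.30 ± 0.12 SE in Lyz2Cre (limma adjusted p = 0.0583) and -0.40 ± 0.12 in Lyz2Cre-BHLHE40-Fl (0.0124), with an interaction that was not called (-0.10 ± 0.18). With all library totals set equal, Atg3 was not called with LPS (0.20 and 0.05), and Atg5, Atg7 and Atg14 were lower in both labels. In Lyz2Cre-BHLHE40-Fl controls, Atg5 was called lower and Atg7 higher on either scaling. Atg3 and Atg14 were called higher there with equal totals but not on the deposited scaling. With LPS, the 4 were not called by label on the deposited scaling. With equal totals, Atg5 (0.24), Atg7 (0.26) and Atg14 (0.39) were called higher in LPS-treated Lyz2Cre-BHLHE40-Fl, as 29.9% of all genes were. Atg3 (0.18) was not.

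Sqstm1, the member with the largest LPS response in Lyz2Cre on the deposited scaling, had no E-box in its window (chr11:50210771-50211070, minus strand). Its promoter is shown because LPS acts in part through NF-kB, and the capitals mark matches to the NF-kB site pattern (GGG, any 5 bases, CC) on either strand, some of which overlap.
Sqstm1: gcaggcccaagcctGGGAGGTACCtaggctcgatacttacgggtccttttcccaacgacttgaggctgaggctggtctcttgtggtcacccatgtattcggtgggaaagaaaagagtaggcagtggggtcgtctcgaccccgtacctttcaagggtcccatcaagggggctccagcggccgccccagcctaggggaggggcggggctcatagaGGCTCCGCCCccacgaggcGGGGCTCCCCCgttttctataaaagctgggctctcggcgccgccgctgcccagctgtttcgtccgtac
The 4 matches begin at -236, -37, -18 and -17 from the start. Such a short motif is common: 19 of the 32 member promoters (59.4%) and 50.8% of all promoters hold it. The antioxidant response core TGACNNNGC was in 4 of 32 (12.5%, against 12.4% of all promoters), those of Atg13, Map1lc3b, Ulk2 and Tax1bp1. A match is a string of letters and not a measured binding site.

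Per kb of exon, Gabarap (5645 ± 328 scaled reads per kb in Lyz2Cre controls, SD, n = 3) and Sqstm1 (4190.2 ± 194) stood above the other members. Gabarapl1 followed with 1731 ± 121 and Tax1bp1 with 1083 ± 92.2, while Atg16l2 was last with 33.6 ± 1.62. These 4 led in every group, and Atg16l2 was last in every group. With LPS, Sqstm1 moved to the first place in both genotype labels, at 21629 ± 463 scaled reads per kb in Lyz2Cre and 5734 ± 34 in Lyz2Cre-BHLHE40-Fl. In the latter group Gabarap, at 5541 ± 296, lay within its own spread of Sqstm1, as did Gabarapl1 (855 ± 23.6) and Optn (839 ± 29.5) with each other. Sqstm1 alone made up 21.7% ± 1.36 of the members' summed level per kb in Lyz2Cre controls and 56.0% ± 0.628 with LPS, but 17.2% ± 0.689 and 29.9% ± 0.896 in the libraries labelled Lyz2Cre-BHLHE40-Fl.

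**Figure D1:**
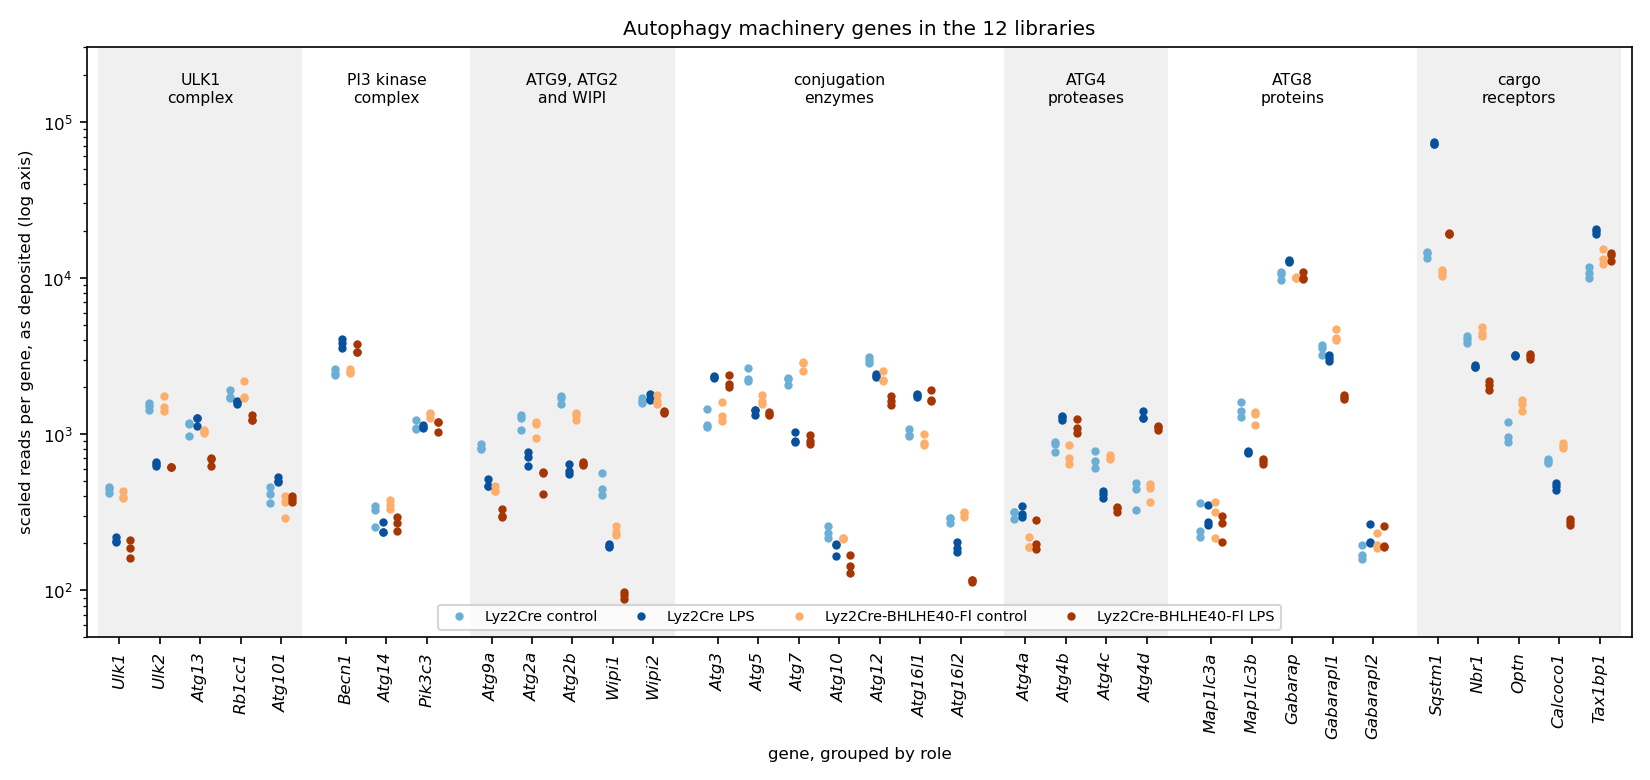
Scaled reads (log axis) of each of the 34 genes in the 12 libraries, grouped by role, with 1 point per library and 1 colour per group. Sqstm1 in Lyz2Cre with LPS is the highest set of points, at 71554.4 to 74374.8, and Wipi1 in Lyz2Cre-BHLHE40-Fl with LPS the lowest, at 87.7 to 98.1.

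The response to LPS was split within the pathway. In Lyz2Cre, 10 of 34 members (29.4%) were called higher and 15 (44.1%) lower, where 25% of all tested genes were called higher and 23.9% lower. In Lyz2Cre-BHLHE40-Fl, 7 members (20.6%) were called higher and 21 (61.8%) lower, where 24.9% and 25.6% of all genes were. Members are well expressed, and among the 8497 genes with a mean of at least 196, the lowest mean of a member, 43.3% were called higher and 31.6% lower in Lyz2Cre, and 44.1% and 32% in Lyz2Cre-BHLHE40-Fl. The median log2 change of the members was -0.17 in Lyz2Cre and -0.45 in Lyz2Cre-BHLHE40-Fl, beside 0.00 and -0.05 over all genes. On the deposited scaling, 7 members were called higher in both genotype labels (Sqstm1, Optn, Atg4d, Atg16l1, Atg3, Becn1, Atg4b) and 15 lower in both, and 0 were called in opposite directions. On that scaling, Atg13, Rb1cc1, Atg14, Pik3c3, Wipi2 and Gabarapl1 passed the threshold as lower in Lyz2Cre-BHLHE40-Fl and not in Lyz2Cre, and Tax1bp1, Gabarap and Atg101 as higher in Lyz2Cre and not in Lyz2Cre-BHLHE40-Fl. Whether such a difference between the labels passed its own test is given by the interaction below.

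These counts depend on the scaling. The deposited totals rose with LPS, and setting all library totals equal moved the median of all genes by -0.57 in Lyz2Cre and -0.50 in Lyz2Cre-BHLHE40-Fl, and the median member by -0.73 and -0.62. The members called were then 3 higher and 25 lower in Lyz2Cre (11.5% and 45.8% of all genes) and 4 higher and 27 lower in Lyz2Cre-BHLHE40-Fl (12.6% and 46.1%). Under equal totals Sqstm1, Optn and Atg4d were still called higher in Lyz2Cre, as were these 3 and Atg16l1 in Lyz2Cre-BHLHE40-Fl. All 15 members called lower in Lyz2Cre and all 21 in Lyz2Cre-BHLHE40-Fl kept that call. A rise of any other member is therefore given relative to the deposited scaling. With quantile normalization the counts were 8 higher and 20 lower in Lyz2Cre (21.1% and 27.6% of all genes) and 5 and 23 in Lyz2Cre-BHLHE40-Fl (20.8% and 28.5%).

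**Figure D2:**
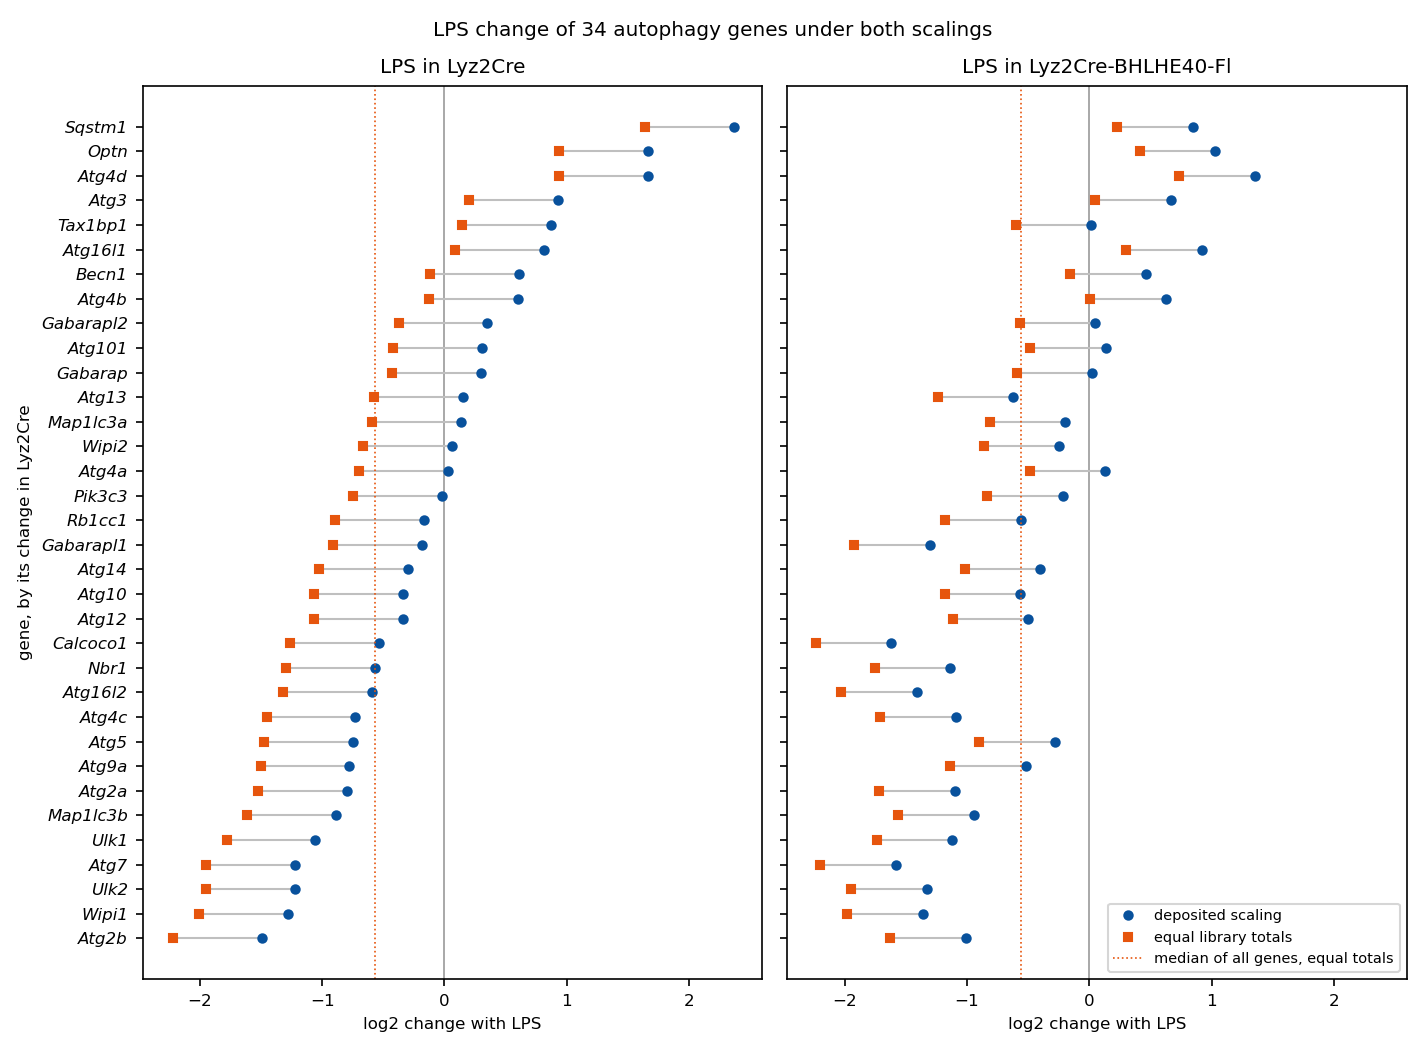
Log2 change with LPS of each gene under the deposited scaling (circles) and with equal library totals (squares), in Lyz2Cre (left) and Lyz2Cre-BHLHE40-Fl (right); the dotted line is the median of all genes with equal totals. Every gene moves left with equal totals. Sqstm1, Optn, Atg4d, Atg3 and Atg16l1 stay right of 0 in both panels. With equal totals Atg3 is called under neither label, and Atg16l1 in Lyz2Cre-BHLHE40-Fl alone.

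Between the genotype labels, members differed in both directions in controls, and under the deposited scaling (but not with equal totals) in 1 direction with LPS. In controls, 6 members (17.6%) were higher and 7 (20.6%) lower in Lyz2Cre-BHLHE40-Fl, near the 15% and 16.6% of all genes. With LPS, 18 (52.9%) were lower, where 19.8% of all genes were, and 0 were higher, where 17.7% of all genes were. That count of 0 higher from limma was also 0 at an unadjusted p under 0.05 and with edgeR and DESeq2. Among the 8497 well-expressed genes, 17.4% were higher and 28.8% lower in controls and 23.4% and 32.7% with LPS. The members' median log2 difference was 0.02 in controls and -0.30 with LPS, beside 0.00 and -0.02 over all genes. Both comparisons within a treatment share libraries with the LPS comparisons, so these counts are not separate evidence. With equal totals, which moved the median of all genes by 0.17 and 0.24 and the median member by 0.18 and 0.29, controls had 13 members higher and 6 lower (24.6% and 12.2% of all genes), and LPS-treated libraries 8 higher and 9 lower (29.9% and 10.8%). The 8 members lower with LPS under every alternative were Atg12, Atg13, Atg16l2, Atg9a, Calcoco1, Gabarapl1, Sqstm1 and Wipi1. Among the 18, Atg10 alone had overlapping groups, and its call was lost without Lyz2Cre LPS replicate 1 or 3 or Lyz2Cre-BHLHE40-Fl LPS replicate 2 or 3 (adjusted p 0.0990 to 0.173), that of Atg2a without replicate 1 of either label (0.0536 and 0.0617) and that of Atg4c without Lyz2Cre LPS replicate 1 (0.0621). The same libraries had the lower macrophage and higher mesothelial marker sums given above.

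The interaction asks whether the LPS change itself differed between the labels, and scaling touches it least (a shift of 0.08 in the median of all genes and 0.11 in the median member). It was called for 14 of 34 members, 2 higher and 12 lower in Lyz2Cre-BHLHE40-Fl (5.88% and 35.3% of members), where 9.52% of all genes were called higher and 9.31% lower. Among the well-expressed genes 18.6% were called higher and 16.9% lower. The members' median was -0.27 and that of all genes -0.03. With equal totals 3 were called higher and 8 lower (12.4% and 6.95% of all genes). All 5 cargo receptors were among the 12, and kept the call with equal totals, with quantile normalization and in every fit without 1 library.

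**Figure D3:**
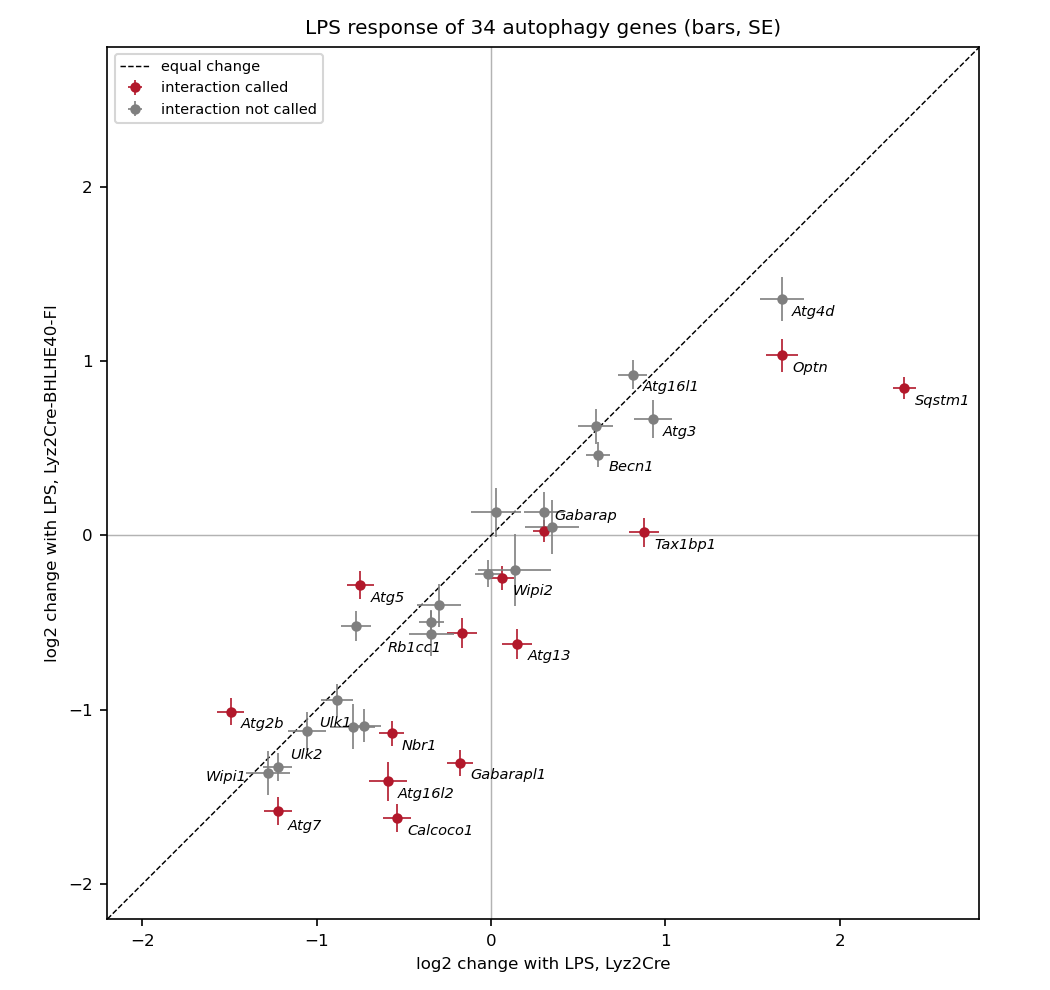
Log2 change with LPS in Lyz2Cre (x axis) against that in Lyz2Cre-BHLHE40-Fl (y axis) for the 34 genes, with SE bars; red points have a called interaction and the dashed line marks equal change. Sqstm1 lies farthest below the line (2.37 against 0.85), and Atg2b (-1.49 against -1.01) and Atg5 (-0.75 against -0.28) are the red points above it. Both axes use the deposited scaling.

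In the ULK1 initiation complex, the 2 kinase genes fell with LPS under both labels, and Atg13 differed between labels with LPS. By limma, edgeR and DESeq2, 0 of the 5 genes were called between labels in controls, and 0 had an unadjusted limma p under 0.05. Of all genes, limma called 15% higher and 16.6% lower there. With equal totals, Rb1cc1 was called higher in Lyz2Cre-BHLHE40-Fl controls (log2 0.23, limma adjusted p = 0.0376). Ulk2, a kinase that starts autophagy with its paralog ULK1, had 1431.1, 1523.1 and 1577.8 scaled reads in Lyz2Cre controls and 662.8, 648.3 and 628.3 with LPS, and 1763, 1406.9 and 1482.7 against 612.1, 616.4 and 614.9 in Lyz2Cre-BHLHE40-Fl. The control and LPS libraries did not overlap under either label, and the fall was 2.34-fold (log2 -1.22 ± 0.08 SE, limma adjusted p = 6.47e-10) and 2.52-fold (-1.33 ± 0.08, 1.76e-10). Ulk1 fell alongside, by 2.09-fold and 2.17-fold. Neither kinase was called between genotype labels on the deposited scaling. With equal totals, Ulk2 was called higher in Lyz2Cre-BHLHE40-Fl with LPS (log2 0.21, limma adjusted p = 0.0449).

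Atg13, the subunit that links the ULK1 kinase to its scaffold, behaved differently. Its values were 1171.7, 1162.4 and 972.3 in Lyz2Cre controls and 1129.7, 1260.7 and 1270.7 with LPS, which overlap. In Lyz2Cre-BHLHE40-Fl they were 1030.9, 1064.2 and 1016.7 in controls and 628.5, 703.8 and 691.3 with LPS, so the LPS libraries there lay below all 9 others. The fall under that label was 1.54-fold (log2 -0.62 ± 0.08), the difference between labels with LPS 1.81-fold (-0.85 ± 0.08, limma adjusted p = 3.41e-07) and the interaction -0.77 ± 0.12 (adjusted p = 0.000145). Rb1cc1, the FIP200 scaffold, had 1739, 1709.5 and 1925.3 against 1625.8, 1553.1 and 1605.1 in Lyz2Cre, and 2173, 1702.1 and 1735.6 against 1227.7, 1327.8 and 1232.2 in Lyz2Cre-BHLHE40-Fl. The LPS-treated Lyz2Cre-BHLHE40-Fl libraries were the lowest, and LPS-treated Lyz2Cre lay between them and the controls, which overlapped by label. In Lyz2Cre the fall (log2 -0.17 ± 0.09, limma adjusted p = 0.130) was not called on the deposited scaling. It was called with edgeR (-0.28, adjusted p = 0.00685), quantile normalization (-0.48) and equal totals (-0.89). The label difference with LPS (-0.34 ± 0.09, adjusted p = 0.00489) was lost with equal totals (-0.05, 0.685) and quantile normalization (-0.21, 0.0761), and the interaction of -0.39 ± 0.12 (limma adjusted p = 0.0325) was lost with equal totals (-0.28, adjusted p = 0.111) and with edgeR (0.0524). It was also lost (0.0544 to 0.0742) on leaving out replicate 1 or 2 of the Lyz2Cre controls, 1 or 3 of LPS-treated Lyz2Cre, 1 of the Lyz2Cre-BHLHE40-Fl controls, or 1 or 3 of LPS-treated Lyz2Cre-BHLHE40-Fl. Atg101, which stabilises ATG13, was called higher with LPS in Lyz2Cre (0.30 ± 0.12), but it is -0.42 with equal totals and the call was lost without Lyz2Cre control replicate 2 or 3 or any 1 of the LPS libraries (adjusted p 0.0631 to 0.172). Its label difference with LPS (-0.41 ± 0.12) was also lost with equal totals (-0.12, 0.473).

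In the class III PI3 kinase complex, Becn1, its regulatory subunit, had 2465.7, 2391.2 and 2620.4 scaled reads in Lyz2Cre controls and 3568.3, 4034.5 and 3843.1 with LPS. Under the Lyz2Cre-BHLHE40-Fl label the values were 2617.9, 2499.5 and 2462.4 and then 3770.8, 3336.5 and 3354.9. LPS libraries were above controls under both labels, by 1.53-fold (log2 0.61 ± 0.07, limma adjusted p = 7.62e-07) and 1.38-fold (0.46 ± 0.07, 2.18e-05), yet with equal totals the changes were -0.11 and -0.16, neither called. The exons of Becn1 overlap the opposite-strand gene Cntd1 over 43.9% of their length, and Cntd1 had at most 13.8 scaled reads. Pik3c3, the catalytic subunit VPS34, and Atg14, which directs the complex to autophagosomes, were called lower with LPS in Lyz2Cre-BHLHE40-Fl (-0.22 ± 0.08 and -0.40 ± 0.12). In Lyz2Cre, Atg14 missed the threshold with limma but passed it with edgeR (-0.43, adjusted p = 0.00754), DESeq2 (0.0495), equal totals (-1.02) and without Lyz2Cre control replicate 1 or LPS replicate 3 (0.00859 and 0.0428), and Pik3c3 (-0.02 ± 0.08) passed it as lower with equal totals (-0.74) and quantile normalization (-0.21, 0.0347). Each of the calls in Lyz2Cre-BHLHE40-Fl was lost in at least 1 fit without a library: Pik3c3 without Lyz2Cre-BHLHE40-Fl control replicate 1 or 3 or LPS replicate 3 (adjusted p 0.0652 to 0.137), and Atg14 without Lyz2Cre-BHLHE40-Fl LPS replicate 1 (0.0570). The interaction was called for 0 of the 3 subunits by limma, by edgeR and by DESeq2, and 0 had an unadjusted limma p under 0.05. Of all genes, limma called 9.52% higher and 9.31% lower in the interaction.

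Among the genes for lipid supply and phosphoinositide reading, 4 of 5 fell with LPS in Lyz2Cre and all 5 in Lyz2Cre-BHLHE40-Fl, where 31.6% and 32% of well-expressed genes were called lower. Atg2b, which codes for a lipid transfer protein, had the largest fall in Lyz2Cre, from 1565, 1746 and 1708.4 to 642, 583.5 and 556.8, or 2.82-fold (log2 -1.49 ± 0.08, limma adjusted p = 1.75e-11). In Lyz2Cre-BHLHE40-Fl it went from 1334, 1231.6 and 1373.2 to 637.8, 647.1 and 667.5, or 2.02-fold (-1.01 ± 0.08). The controls of the 2 labels do not overlap and the LPS libraries do, and the interaction was 0.48 ± 0.11 (adjusted p = 0.00426). Its paralog Atg2a fell by 1.74-fold and 2.13-fold.

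Wipi1 and Atg9a were lower in Lyz2Cre-BHLHE40-Fl in both treatments. Wipi1, a phosphoinositide reader, had 410.3, 446.6 and 564.5 scaled reads in Lyz2Cre controls and 259.5, 227.4 and 237 in Lyz2Cre-BHLHE40-Fl controls, and with LPS 197.3, 193.1 and 188.2 against 93.6, 98.1 and 87.7. The labels do not overlap in either treatment, with a difference of 1.96-fold (log2 -0.96 ± 0.13, limma adjusted p = 9.61e-06) and 2.07-fold (-1.04 ± 0.13, 3.66e-06). LPS lowered it by 2.46-fold and 2.59-fold, and the interaction was not called (-0.08 ± 0.18). Atg9a, the lipid scramblase carried by seed vesicles, had 811.4, 861.7 and 805.6 against 430.4, 432.6 and 463.1 in controls, and 468.3, 463.5 and 514.8 against 297.3, 295.9 and 333.1 with LPS. It too was separate by label in both treatments, 1.87-fold and 1.56-fold lower (limma adjusted p = 1.85e-07 and 1.16e-05). Gm29253 overlaps 31.8% of the Atg9a exon length on the same strand and had 0 to 2.8 scaled reads. Wipi2, the reader that recruits ATG16L1, had 1573.5, 1706.3 and 1618 in Lyz2Cre controls and 1667.4, 1801.4 and 1654.8 with LPS, which overlap, and 1569.6, 1620.8 and 1767.4 against 1413.8, 1395.3 and 1365 under the other label. Its LPS-treated Lyz2Cre-BHLHE40-Fl libraries were below all others, with an interaction of -0.31 ± 0.10 (limma adjusted p = 0.032) that was lost with equal totals (-0.20, 0.178), with edgeR (0.106) and on leaving out replicate 1 of the Lyz2Cre controls, 2 of LPS-treated Lyz2Cre, 3 of the Lyz2Cre-BHLHE40-Fl controls, or 2 or 3 of LPS-treated Lyz2Cre-BHLHE40-Fl (0.0565 to 0.0973).

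The conjugation enzymes did not move as a unit. Atg7, the E1-like enzyme at the head of both conjugation systems, had 2293.3, 2242.1 and 2055.1 scaled reads in Lyz2Cre controls and 904.6, 1024.8 and 895.8 with LPS. In Lyz2Cre-BHLHE40-Fl it had 2543.8, 2850.8 and 2894.3, and 990.1, 904.7 and 870.3 with LPS. Controls were above LPS libraries under both labels, with a log2 change of -1.22 ± 0.08 (2.33-fold, limma adjusted p = 4.48e-10) and -1.58 ± 0.08 (2.998-fold, 9.89e-12). The controls were 1.26-fold higher in Lyz2Cre-BHLHE40-Fl (adjusted p = 0.00382), the LPS libraries overlapped, and the interaction of -0.36 ± 0.11 (0.0341) was not called with equal totals (-0.25, 0.154), with edgeR (0.103), nor on leaving out replicate 3 of the Lyz2Cre controls, 2 of LPS-treated Lyz2Cre, or 2 or 3 of either Lyz2Cre-BHLHE40-Fl group (0.0707 to 0.101). Atg3, the E2-like enzyme that takes ATG8 from ATG7, went the other way under the deposited scaling, 1.89-fold and 1.58-fold higher with LPS, but 0.20 and 0.05 on the log2 scale with equal totals, neither called.

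Atg5, which is joined to ATG12, had 2253.3, 2186.2 and 2633.8 in Lyz2Cre controls and 1434, 1426.2 and 1332.9 with LPS. In Lyz2Cre-BHLHE40-Fl controls, at 1774.6, 1633.5 and 1549.3, it was already lower, and with LPS it reached 1385.7, 1330.9 and 1347.5. The controls of the labels do not overlap (1.43-fold lower, limma adjusted p = 5.14e-05), the LPS libraries do, and the interaction was 0.47 ± 0.11 (0.00582). Atg12 was lower in Lyz2Cre-BHLHE40-Fl in both treatments, 1.29-fold and 1.44-fold, and Atg10, the E2-like enzyme for ATG12, fell with LPS by 1.27-fold and 1.47-fold; the first of these Atg10 calls was lost (adjusted p 0.0666 to 0.158) on leaving out replicate 1 or 3 of the Lyz2Cre controls or 2 of their LPS-treated counterparts.

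The paralogs Atg16l1 and Atg16l2, which code for partners of the ATG12-ATG5 conjugate, differed in direction under the deposited scaling. Atg16l1 had 978.4, 983.2 and 1071.1 scaled reads in Lyz2Cre controls and 1810.6, 1726.9 and 1787 with LPS, and 1001.8, 883.4 and 847.1 against 1911.1, 1623.8 and 1643 in Lyz2Cre-BHLHE40-Fl. LPS libraries were above controls under both labels, 1.76-fold (log2 0.81 ± 0.08) and 1.90-fold (0.92 ± 0.08); with equal totals the first was 0.08 and not called and the second 0.30 and called. Atg16l2 had 292.5, 292.6 and 268.8 against 186.2, 204.1 and 175.7 in Lyz2Cre, and 313.3, 319 and 293.5 against 117, 116.5 and 112.7 in Lyz2Cre-BHLHE40-Fl. LPS lowered it 1.51-fold and 2.67-fold, its LPS-treated Lyz2Cre-BHLHE40-Fl libraries were below all others, and the interaction was -0.82 ± 0.15 (limma adjusted p = 0.000938).

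The 4 ATG4 protease genes split by paralog. Atg4d had 443.4, 489.6 and 326.6 scaled reads in Lyz2Cre controls and 1271.4, 1413.8 and 1267.6 with LPS, and 365.7, 479.2 and 450 against 1108.3, 1058 and 1129.6 in Lyz2Cre-BHLHE40-Fl. Every LPS library was above every control, by 3.14-fold (log2 1.67 ± 0.13, limma adjusted p = 3.37e-09) and 2.55-fold (1.35 ± 0.13, 5.38e-08), and the interaction was not called. Atg4d overlaps Kri1 on the opposite strand over 19.3% of its exon length; Kri1 had 861 ± 68.4 and 878 ± 66.1 scaled reads in Lyz2Cre, and 785 ± 39.8 and 1571 ± 207 in Lyz2Cre-BHLHE40-Fl. Atg4c fell by 1.67-fold and 2.13-fold, while Atg4b was called higher under the deposited scaling (1.51-fold and 1.54-fold) and not with equal totals (-0.13 and 0.01). Atg4a, on the X chromosome, was not called with LPS and was lower in Lyz2Cre-BHLHE40-Fl, at 189, 219.5 and 188.4 against 319.5, 287.8 and 319.1 in controls and 280.9, 197.8 and 185.3 against 293.2, 347.6 and 306.4 with LPS. The labels do not overlap in either treatment, with replicate 1 of the LPS-treated group closest to Lyz2Cre. The difference was 1.55-fold (limma adjusted p = 0.00198) and 1.43-fold (0.00645), the second not called with equal totals (log2 -0.25, 0.200).

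Of the ATG8 genes, Gabarapl1 differed most between the labels. It had 3697.5, 3218.9 and 3538.3 scaled reads in Lyz2Cre controls and 3223.7, 2946.2 and 3051.5 with LPS, which overlap. The change in Lyz2Cre (log2 -0.18 ± 0.08, limma adjusted p = 0.0579) just missed the threshold in the main fit. It was called lower with edgeR (-0.30, adjusted p = 0.00359), DESeq2 (0.0427) and a filter at 5 (0.0459). Quantile normalization (-0.71), equal totals (-0.91) and the fit without Lyz2Cre control replicate 2 (0.0223) also called it lower. In Lyz2Cre-BHLHE40-Fl it went from 3973, 4709.3 and 4097.2 to 1771.9, 1677.4 and 1715.6, so that its controls were the highest and its LPS libraries the lowest of the 4 groups. That fall was 2.47-fold (log2 -1.30 ± 0.08, limma adjusted p = 6.01e-11), and the label difference was 1.22-fold higher in controls (0.00632) and 1.79-fold lower with LPS (9.65e-08). The interaction was -1.12 ± 0.11 (adjusted p = 5.37e-07) and -1.01 with equal totals. ATG8 genes have near-identical copies elsewhere in the genome, and how shared reads were assigned is not stated, so their levels are uncertain; Gabarapl1 also overlaps 1700101I11Rik (at most 13.4 scaled reads) over 28.3% of its exon length.

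Gabarap, the most abundant ATG8 gene, had 10938.4, 9749.8 and 10537.9 in Lyz2Cre controls and 12767, 12654 and 13036.5 with LPS, and 9974.4, 10199.4 and 9907.6 against 10839.6, 9998.7 and 9815.4 in Lyz2Cre-BHLHE40-Fl. The 3 LPS-treated Lyz2Cre libraries were the highest, 1.23-fold above their controls (log2 0.30 ± 0.06) but -0.43 with equal totals. Its interaction, -0.28 ± 0.09 (limma adjusted p = 0.0423), was lost with equal totals (-0.17, 0.249), with quantile normalization (-0.16, 0.289), with edgeR (0.186) and in 9 of 12 fits without 1 library (0.0603 to 0.106), that is, in all but those without Lyz2Cre control replicate 1 or 3 or Lyz2Cre-BHLHE40-Fl LPS replicate 1. Map1lc3b, which codes for LC3B, fell by 1.85-fold and 1.93-fold with LPS (adjusted p = 1.79e-07 and 7.41e-08), with no call between labels. Map1lc3a and Gabarapl2, both between 158.9 and 367.9 in every library, were called in none of the 5 comparisons on the deposited scaling. With equal totals, Map1lc3a was called lower with LPS under both labels (-0.59 and -0.81). Gabarapl2 was then called lower in Lyz2Cre-BHLHE40-Fl (-0.57), but with quantile normalization it was called higher in Lyz2Cre (0.56).

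On the deposited scaling, a cargo receptor had the largest log2 value of the members, in size, in every comparison except that of controls, where it was Wipi1. With equal totals, Atg2b had the largest for LPS in Lyz2Cre (-2.22, beside 1.64 for Sqstm1). In controls it was then Optn (0.80, beside -0.78 for Wipi1). Sqstm1 codes for p62, which binds ubiquitinated cargo and is itself degraded by autophagy; its gene lies at chr11:50199366-50210827 on the minus strand. It had 14337.9, 14529 and 13319.9 scaled reads in Lyz2Cre controls and 71827.6, 74374.8 and 71554.4 with LPS. In Lyz2Cre-BHLHE40-Fl it had 10208.5, 11217.1 and 10733.7 in controls and 19206.2, 19152.6 and 19371.5 with LPS. The 4 groups do not overlap, and the LPS-treated Lyz2Cre libraries stand far above the rest. The rise was 5.16-fold in Lyz2Cre (log2 2.37 ± 0.07, limma adjusted p = 3.19e-15) and 1.80-fold in Lyz2Cre-BHLHE40-Fl (0.85 ± 0.07, 3.9e-09), where the second turned to -0.16 with quantile normalization (not called). With equal totals these were 1.64 and 0.23, both called. Between labels Sqstm1 was 1.31-fold lower in controls (adjusted p = 0.000123) and 3.77-fold lower with LPS (log2 -1.92 ± 0.07, 3.1e-13), and the interaction was -1.52 ± 0.09 (3.07e-09). Mrnip, which overlaps 17.3% of its exon length on the other strand, had 1.6 to 46.2.

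On the deposited scaling, Optn and Tax1bp1 also had a smaller LPS change in Lyz2Cre-BHLHE40-Fl, where their controls were higher. Optn, a receptor for ubiquitinated bacteria and mitochondria, had 886.1, 952.4 and 1191.7 scaled reads in Lyz2Cre controls and 3201.5, 3151.8 and 3203.9 with LPS. The Lyz2Cre-BHLHE40-Fl controls were already higher, at 1657.6, 1403.7 and 1570.3, and their LPS counterparts had 3261.7, 3149.4 and 3040.5. Labels are apart in controls (1.53-fold higher, limma adjusted p = 3.85e-05) and overlap with LPS, where the log2 difference was -0.02 (95% interval -0.21 to 0.18), or 0.27 and called with equal totals. The LPS rise was 3.15-fold and 2.04-fold, and the interaction was -0.64 ± 0.13 (0.0019). Tax1bp1, which recruits autophagy machinery to ubiquitinated cargo and restrains NF-kB signalling, had 9957.6, 10714.4 and 11790.7 against 19114.4, 20423.7 and 19896.9 in Lyz2Cre, and 15278.6, 12275.8 and 13189.5 against 13959.7, 14348.7 and 12784.5 in Lyz2Cre-BHLHE40-Fl. The LPS-treated Lyz2Cre libraries are the highest, and control and LPS libraries of the other label overlap. The rise in Lyz2Cre was 1.83-fold under the deposited scaling (0.15 and not called with equal totals, -0.22 and called with quantile normalization). In Lyz2Cre-BHLHE40-Fl the log2 change was 0.02 ± 0.08 and not called under the deposited scaling. There it was called lower with equal totals (-0.60) and quantile normalization (-0.97). The interaction of Tax1bp1 was -0.86 ± 0.12 (limma adjusted p = 4.68e-05).

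Nbr1 and Calcoco1 fell instead, and further in Lyz2Cre-BHLHE40-Fl. Nbr1, a p62 partner, had 3812.9, 4066.7 and 4246 scaled reads in Lyz2Cre controls and 2683.2, 2789 and 2686 with LPS, and 4879.6, 4251.4 and 4408.1 against 2199, 2050 and 1911 in Lyz2Cre-BHLHE40-Fl. LPS libraries were below controls under both labels, 1.49-fold and 2.20-fold, and the interaction was -0.57 ± 0.10 (limma adjusted p = 0.000591). Calcoco1, which codes for an ER-phagy receptor, had 654.3, 672.8 and 693.4 against 440.5, 486.9 and 465, and 835.3, 818.7 and 873.9 against 285.6, 272.9 and 261.7. Its Lyz2Cre-BHLHE40-Fl controls were the highest group and the LPS libraries of that label the lowest, a fall of 3.08-fold beside 1.45-fold in Lyz2Cre, with an interaction of -1.08 ± 0.11 (1.88e-06). Gabarapl1, Calcoco1 and Tax1bp1 were the 3 members called higher in Lyz2Cre-BHLHE40-Fl controls and lower with LPS, also with equal totals. In a fit of the control libraries alone, the first call was lost for Gabarapl1 and Tax1bp1 (adjusted p = 0.0541 and 0.0668).

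**Figure D4:**
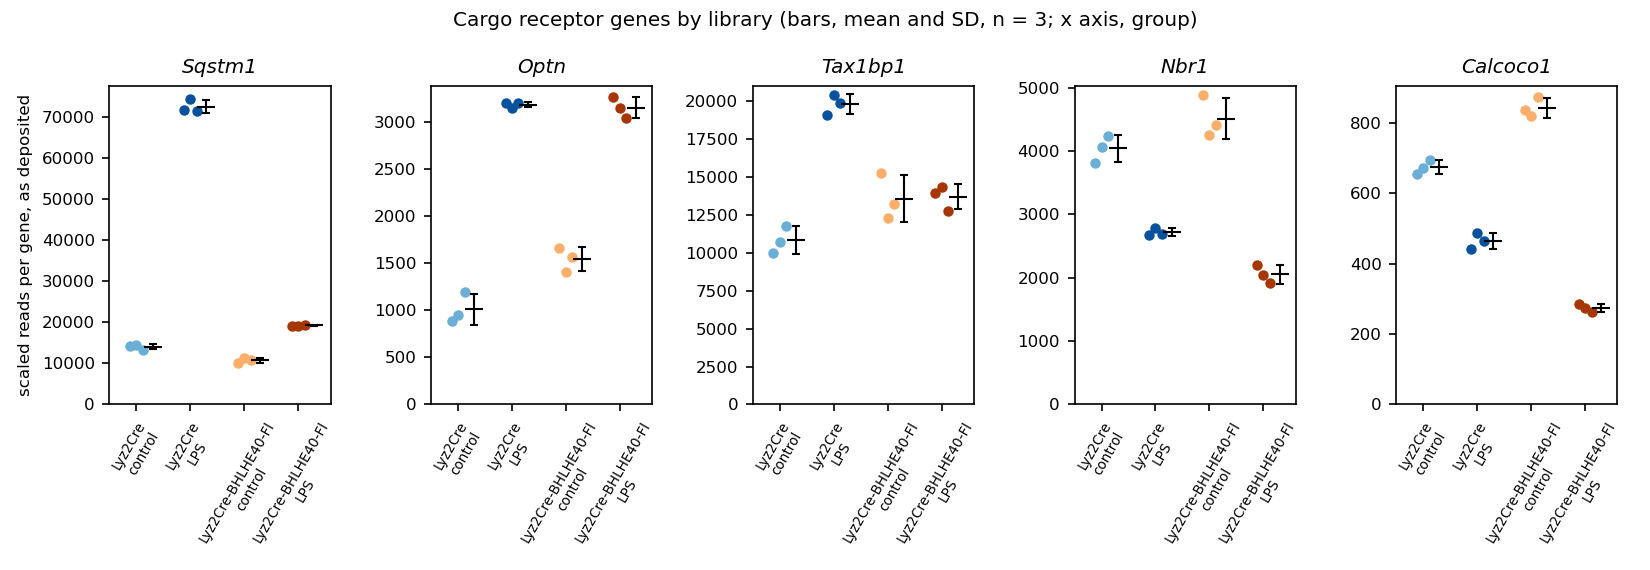
Scaled reads of the 5 cargo receptor genes in each library (points) with mean and SD (n = 3) by group, each axis starting at 0. On the deposited scaling, Sqstm1 and Tax1bp1 peak in Lyz2Cre with LPS, Optn is nearly equal in both LPS groups (3151.8 to 3203.9 and 3040.5 to 3261.7), and Nbr1 and Calcoco1 are lowest in Lyz2Cre-BHLHE40-Fl with LPS.

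**Figure D5:**
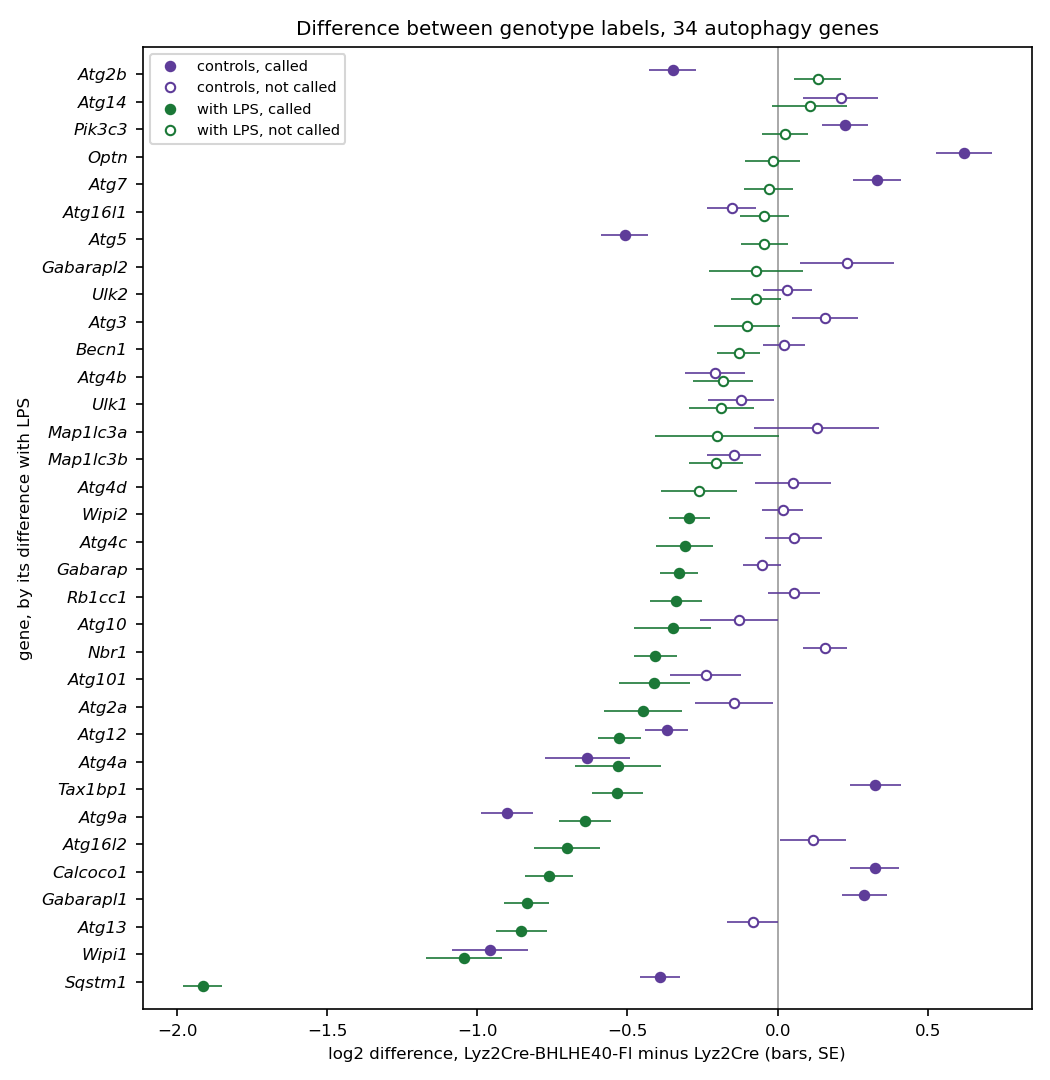
Log2 difference between genotype labels (Lyz2Cre-BHLHE40-Fl minus Lyz2Cre, deposited scaling, SE bars) in controls (purple) and with LPS (green), filled where called, sorted by the LPS value. With LPS the 18 filled points all lie below 0, from -0.29 for Wipi2 to -1.92 for Sqstm1, while controls have 6 filled points above and 7 below 0; with equal totals 8 genes were called higher and 9 lower with LPS.

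A share of all reads puts every library on the same total, as the equal-totals scaling does. By that share, the 34 members took 0.326% ± 0.00580 in Lyz2Cre controls and 0.376% ± 0.00596 with LPS (SD, n = 3). In the libraries labelled Lyz2Cre-BHLHE40-Fl they took 0.364% ± 0.00333 and 0.238% ± 0.00636. The 4 groups did not overlap. Sqstm1 took 0.0620% ± 0.00285 and 0.193% ± 0.00453 of these reads in Lyz2Cre, and 0.0534% ± 0.00318 and 0.0624% ± 0.00135 in Lyz2Cre-BHLHE40-Fl. Without it the members' share was lower with LPS under both labels, at 0.264% ± 0.00850 and 0.183% ± 0.00160 in Lyz2Cre and 0.311% ± 0.00581 and 0.175% ± 0.00622 in Lyz2Cre-BHLHE40-Fl. The higher share of all 34 members with LPS in Lyz2Cre thus rests on Sqstm1, and without it the LPS-treated libraries of the labels overlap. The mitochondrial share of reads, 0.486% to 0.600% in LPS-treated Lyz2Cre and 0.756% to 1.92% in LPS-treated Lyz2Cre-BHLHE40-Fl libraries, also differed there, and its part in the result was not tested.

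Genes that act around this core were counted the same way, on the deposited scaling, where 25% of all genes were called higher and 23.9% lower with LPS in Lyz2Cre and 24.9% and 25.6% in Lyz2Cre-BHLHE40-Fl. By label, 15% of all genes were called higher and 16.6% lower in controls, and 17.7% and 19.8% with LPS. Of 9 partners of the PI3 kinase complex, 4 were higher and 3 lower with LPS in Lyz2Cre, 5 and 2 in Lyz2Cre-BHLHE40-Fl, and 5 were lower by label with LPS. Bcl2, which holds BECN1 inactive, fell 1.89-fold and 4.26-fold with LPS and was 2.63-fold lower in Lyz2Cre-BHLHE40-Fl controls and 5.93-fold lower with LPS (log2 -2.55 ± 0.11, limma adjusted p = 1.14e-11). Of 6 WIPI-like and scaffold genes, 1 was higher and 1 lower in Lyz2Cre, and 1 and 3 in Lyz2Cre-BHLHE40-Fl. C9orf72, which codes for part of a complex that acts on Rab GTPases and ULK1, rose 3.22-fold and 1.81-fold (log2 0.96 and 0.23 with equal totals, both called; interaction -0.83 ± 0.12), and Atg9b, the low paralog of Atg9a, fell from 51.9 to 65.4 scaled reads to 7.8 to 11.1, and from 38.4 to 61.1 to 1.5 to 3.8.

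Of 14 tethering and fusion genes, 3 were higher and 7 lower in Lyz2Cre and 4 and 7 in Lyz2Cre-BHLHE40-Fl. Tecpr1, which codes for a tether between autophagosome and lysosome, had 5755.9 to 6818.3 in Lyz2Cre controls and 4771.6 to 4982.1 with LPS, but 10150.3 to 12286.8 and 2066.8 to 2221.8 in Lyz2Cre-BHLHE40-Fl, an interaction of -1.995 ± 0.114 (limma adjusted p = 1.52e-09). Plekhm1, a lysosomal adaptor, fell 2.32-fold and 2.82-fold. Of 15 mitophagy and ER-phagy receptor genes, 1 was higher and 8 lower in Lyz2Cre, 2 and 10 in Lyz2Cre-BHLHE40-Fl, and by label 4 and 3 in controls and 3 and 8 with LPS. Bnip3, a hypoxia-regulated mitophagy receptor, was 4.23-fold lower in Lyz2Cre-BHLHE40-Fl controls and 9.20-fold lower with LPS. Of 18 genes of the mTORC1, AMPK and TBK1 kinase branches, 6 were higher and 6 lower in Lyz2Cre and 8 and 4 in Lyz2Cre-BHLHE40-Fl. The mTORC1 inhibitors Sesn1 and Deptor fell most, Sesn1 by 12.3-fold and 13.3-fold and Deptor by 6.08-fold and 6.73-fold.

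With equal totals, most of these neighbouring genes were called lower with LPS, as 45.8% and 46.1% of all genes were. In Lyz2Cre and Lyz2Cre-BHLHE40-Fl respectively, 5 and 6 of the 9 PI3 kinase partners were lower, 5 and 5 of the 6 WIPI-like and scaffold genes, 13 and 11 of the 14 tethering and fusion genes, 15 and 15 of the 15 mitophagy and ER-phagy receptor genes, and 12 and 13 of the 18 kinase branch genes. Those higher were 1 and 0, 1 and 1, 1 and 0, 0 and 0, and 3 and 3 in the same order. The counts by label above are for the deposited scaling. With equal totals, 24.6% of all genes were called higher and 12.2% lower by label in controls, and 29.9% and 10.8% with LPS.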

How the data were processed

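RNA-seq of 12 libraries (4 groups of 3) was analysed from a table of 53465 genes whose deposited values are a scaled read signal per gene: whole reads divided by 1 factor per library. That reading comes from the values. The size of 1 read was estimated in each library, and 99.98% to 100% of values above 0 lay within 0.06 scaled reads of a whole multiple of it. The submitters' processing notes name mm10, STAR, Cufflinks and Cuffdiff, with no role or version; the strand setting, the rule for multiply mapped reads and the scaling method are not stated there or in the labels. The values were taken to be normalized, which they are, so the log-scale test was the main one.

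Groups came from the labels, and all columns matched a library (0 left out). Values were taken to log2(value + 1), genes with at least 1 in at least 3 libraries were kept (20419), and limma 3.58.1 in R 4.3.3 (trend, 4 group means, all libraries) gave 5 comparisons, adjusted by Benjamini-Hochberg over all genes tested, two-sided. Fold values are ratios of group means of deposited values. The alternatives were pseudocounts of 0.1 and 5, no filter, a filter at 5, equal library totals, quantile normalization, edgeR 4.0.16 (TMM, quasi-likelihood) and DESeq2 1.42.0 on the recovered reads, a block for replicate number, the compared groups alone, and leaving out each library. edgeR and DESeq2 called 9 members higher and 18 and 17 lower with LPS in Lyz2Cre. Within-group pairs of libraries differed beyond sampling noise (chi-square per degree of freedom 7.35 to 72.2 over 12 pairs). Levels per kb used GENCODE exon lengths. The script was tested on simulated data, with 3 simulations per comparison. Each seeded 200 changed genes among 19754 to 19790, with the same dispersion for every gene and library. In the data far more genes were called and noise differed between libraries, so the rates below may not apply to the data. Seeded 2-fold changes were called for 79.8% to 86.3% of genes in the 4 two-group comparisons and 53.1% in the interaction. False calls made up 1.64% to 10.7% of calls, the most for the genotype label with LPS.

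Members and gene lists were chosen with earlier results of these data known. Values by library are printed for up to 3 called members per direction and comparison with the largest log2 change, for every member called in the interaction, and for 1 member of each role; from other lists up to 2 genes per comparison are named.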

Additional observations from a re-analysis of the deposited data

Results flagged for a closer look

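The LPS response of 14 members differed between the genotype labels by the interaction test (limma, adjusted p under 0.05). The values are the log2 LPS change in Lyz2Cre-BHLHE40-Fl minus that in Lyz2Cre. Among the cargo receptors it was -1.52 for Sqstm1, -1.08 for Calcoco1, -0.86 for Tax1bp1, -0.64 for Optn and -0.57 for Nbr1. Among the ATG8 genes it was -1.12 for Gabarapl1 and -0.28 for Gabarap, and among the conjugation genes -0.82 for Atg16l2 and -0.36 for Atg7. In the ULK1 complex it was -0.77 for Atg13 and -0.39 for Rb1cc1, and Wipi2 had -0.31. Atg2b (0.48) and Atg5 (0.47) had a smaller fall in Lyz2Cre-BHLHE40-Fl. The calls of Gabarap, Atg7, Rb1cc1 and Wipi2 were lost with equal library totals and in some fits without 1 library.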

How the results depend on the processing

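Scaling moved the results most. With equal library totals, members called higher and lower with LPS in Lyz2Cre were 3 and 25 (10 and 15 on the deposited scaling), 4 were higher in Lyz2Cre-BHLHE40-Fl (7), 13 were higher between labels in controls (6, and 10 with quantile normalization), and 8 were higher and 9 lower between labels with LPS (0 and 18). Signs that turned with equal totals were, for LPS in Lyz2Cre, Atg13 -0.58, Atg101 -0.42, Becn1 -0.11, Wipi2 -0.66, Atg4a -0.70, Atg4b -0.13, Map1lc3a -0.59 and Gabarap -0.43. For LPS in Lyz2Cre-BHLHE40-Fl they were Atg101 -0.48, Becn1 -0.16, Atg4a -0.48, Gabarap -0.59, Gabarapl2 -0.57 and Tax1bp1 -0.60, and between labels with LPS Ulk2 0.21, Atg5 0.24, Atg7 0.26, Atg16l1 0.24 and Optn 0.27. With quantile normalization they were Wipi2 -0.24, Gabarap -0.75 and Tax1bp1 -0.22 in Lyz2Cre, and Becn1 -0.057, Gabarap -0.91, Sqstm1 -0.16 and Tax1bp1 -0.97 in Lyz2Cre-BHLHE40-Fl. By construction, equal totals shift well-expressed genes alike and genes near 0 less.

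With a replicate block the counts were 10 higher and 16 lower for LPS in Lyz2Cre, 7 and 21 in Lyz2Cre-BHLHE40-Fl, 5 and 7 between labels in controls, 0 and 18 with LPS, and 2 and 10 for the interaction, where Wipi2 (adjusted p = 0.0523) and Gabarap (0.0710) lost the call; Pik3c3 lost it in controls (0.0553) and Atg14 gained it in Lyz2Cre (0.0491). Libraries of the same number did not deviate together (correlations -0.0664 to 0.0277 over 18 pairs), and 0 libraries correlated best with their own number. The interaction gave 8 members lower by edgeR and 9 with no filter (12 by limma and by DESeq2). Without 1 library, the counts were 9 to 11 higher and 14 to 16 lower with LPS in Lyz2Cre, 20 to 21 lower in Lyz2Cre-BHLHE40-Fl, 15 to 18 lower between labels with LPS, and 8 to 12 lower for the interaction. The number of 3 libraries a group limits the precision.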

Other observations

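Ratios of 2 members within a library do not depend on its scaling. These pairs were chosen after their values were seen and are given per kb of exon (mean ± SD, n = 3), without a test. Sqstm1 over Nbr1 went from 7.15 ± 0.655 in Lyz2Cre controls to 54.6 ± 0.140 with LPS, and from 4.89 ± 0.565 to 19.3 ± 1.44 in Lyz2Cre-BHLHE40-Fl. Atg16l1 over Atg16l2 went from 3.13 ± 0.321 to 8.31 ± 0.780, and from 2.60 ± 0.195 to 13.2 ± 1.09. Each ratio was higher with LPS in all 3 libraries under both labels.

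Enzymes that act in turn also shifted against each other. Atg3 over Atg7, the E2-like over the E1-like enzyme for ATG8, went from 1.25 ± 0.262 to 5.46 ± 0.411 in Lyz2Cre and from 1.11 ± 0.252 to 5.22 ± 0.692 in Lyz2Cre-BHLHE40-Fl. Among the ATG4 proteases, Atg4d over Atg4c went from 0.288 ± 0.0830 to 1.48 ± 0.161 and from 0.280 ± 0.0339 to 1.52 ± 0.0798, nearly the same under both labels. Optn over Calcoco1 rose further in Lyz2Cre-BHLHE40-Fl, from 2.797 ± 0.211 to 17.6 ± 0.152, than in Lyz2Cre, from 2.28 ± 0.298 to 10.5 ± 0.607. Gabarap over Gabarapl1 went from 2.58 ± 0.195 to 6.48 ± 0.218 in Lyz2Cre-BHLHE40-Fl and from 3.26 ± 0.0397 to 4.56 ± 0.204 in Lyz2Cre.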
